A study of Homo sapiens with 6 samples.

Results

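Serpins are a superfamily of proteins named for serine protease inhibition, and 34 protein-coding serpin genes were followed here through treatment of kidney cancer cells with decitabine. The members were all protein-coding genes of the count files whose symbol is SERPIN followed by a clade letter from A to I and a number, 34 of 58381 genes. Clade A gave 10 of them, clade B 13, clade E 3, clades F and I 2 each, and clades C, D, G and H 1 each. The cells were 786-0, an established line from a human clear cell renal carcinoma. Every library, controls included, carries the label SETD2 KO, a knockout of the methyltransferase that trimethylates lysine 36 of histone H3, and whether this is 1 clone is not stated in the labels. The control group received the vehicle DMSO. The other groups received decitabine at 100 nM or at 300 nM, once a day for 3 days. Medium was renewed on day 4 and RNA was taken on day 5, with 2 polyadenylated RNA libraries for each of the 3 groups. No libraries with intact SETD2 are among these 6, so every comparison is one of dose within knockout cells.

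An inhibitory serpin offers its target protease an exposed loop as bait. When the protease cuts the loop, the serpin refolds and carries the protease with it, so that each inhibitor molecule is used once. Clade A and clades C to G are mostly secreted and control blood clotting, fibrinolysis, complement and inflammation, whereas clade B serpins lack a classical signal peptide and act largely inside cells. Some members inhibit no protease and carry hormones or fold collagen. Decitabine, a cytidine analogue, is taken into newly made DNA and holds methyltransferases there, which lowers DNA methylation over cell divisions. DNA methylation was not measured in these libraries, but the promoters of serpin genes differ widely in their number of CpG sites, the dinucleotides that can be methylated.

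The promoter windows of 4 clade B genes are shown because they pair genes of the same 2 chromosomal clusters whose CpG content or response differed. Each runs from 250 bases before to 50 bases after the annotated start, 5′ to 3′ on the gene's strand, from RefSeq on GRCh38.p14, with every CG in capitals. SERPINB9 (chr6:2903260-2903559, minus strand) holds 35 CpG and SERPINB6 (chr6:2971227-2971526, minus strand) holds 45, the most of its 4 windows. SERPINB5 (chr18:63476708-63477007, plus strand) holds 16 and SERPINB2 (chr18:63887455-63887754, plus strand) holds 1.
SERPINB9: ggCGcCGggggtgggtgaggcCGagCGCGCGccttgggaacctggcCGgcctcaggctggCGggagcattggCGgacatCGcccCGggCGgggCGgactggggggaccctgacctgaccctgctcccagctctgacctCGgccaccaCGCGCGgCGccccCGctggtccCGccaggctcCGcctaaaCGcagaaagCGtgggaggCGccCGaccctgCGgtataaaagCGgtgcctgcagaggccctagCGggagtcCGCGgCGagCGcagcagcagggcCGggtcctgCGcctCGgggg
SERPINB6: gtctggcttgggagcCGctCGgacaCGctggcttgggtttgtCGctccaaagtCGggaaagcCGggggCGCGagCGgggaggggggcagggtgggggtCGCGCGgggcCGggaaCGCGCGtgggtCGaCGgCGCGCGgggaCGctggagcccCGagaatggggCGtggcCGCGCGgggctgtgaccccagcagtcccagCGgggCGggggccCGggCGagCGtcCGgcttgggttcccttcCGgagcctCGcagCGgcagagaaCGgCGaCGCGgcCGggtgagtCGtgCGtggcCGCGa
SERPINB5: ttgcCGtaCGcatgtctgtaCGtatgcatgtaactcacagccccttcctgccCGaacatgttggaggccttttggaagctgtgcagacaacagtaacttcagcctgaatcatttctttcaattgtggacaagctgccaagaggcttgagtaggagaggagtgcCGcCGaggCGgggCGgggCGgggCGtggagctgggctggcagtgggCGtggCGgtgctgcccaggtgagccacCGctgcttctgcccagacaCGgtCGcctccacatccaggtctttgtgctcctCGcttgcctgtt
SERPINB2: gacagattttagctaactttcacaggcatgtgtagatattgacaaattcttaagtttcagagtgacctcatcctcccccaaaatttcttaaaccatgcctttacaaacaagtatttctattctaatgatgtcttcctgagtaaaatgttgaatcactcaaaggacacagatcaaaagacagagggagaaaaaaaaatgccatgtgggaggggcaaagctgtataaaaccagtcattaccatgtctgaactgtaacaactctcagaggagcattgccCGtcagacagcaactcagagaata

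Between 89159112 and 96646427 reads were assigned to genes in a library. Levels are CPM, read counts scaled to a common library size with TMM factors. A count of 0 allows 3 reads, or 0.0306 to 0.0363 CPM on this scale, which covers counting error only. Mates of a pair were counted singly, so bounds and counting intervals from reads treat them as independent and are too narrow. Each difference is a log2 fold change from edgeR's quasi-likelihood test in a single fit of all 6 libraries, adjusted over 23160 genes by Benjamini-Hochberg, and a gene was called at an adjusted p under 0.05. Whether the 2 libraries of each group are separate cultures is not in the labels, and each p-value reflects only how far these libraries spread. The SETD2 transcript was present in all groups, 79.6 ± 2.36 CPM in controls and 19.1 ± 3.74 CPM under 300 nM (SD, n = 2), and with no intact library this does not check the genotype. Of 8 genes chosen as markers of this line, all were tested. Their summed level was 2810 and 2850 CPM with DMSO and 2740 to 3000 CPM at 300 nM, while 3 were higher and 4 lower at 300 nM, PAX8 and CDH6 among the latter. In bulk RNA, fewer cells making a transcript and less transcript per cell cannot be told apart.

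Serpin genes moved almost entirely upward. Of the 34 members 21 had enough reads to be tested. At 100 nM 14 were higher than with DMSO and 0 lower, where 24% of all tested genes were higher and 18.7% lower (42.7% either way). At 300 nM 17 were higher and 0 lower, against 34.8% and 31.1% of all genes (65.9% either way). Between the doses 10 were higher at 300 nM than at 100 nM and 1 was lower, against 20% and 23.4% (43.4% either way). Both libraries lay above both DMSO libraries for 17 members at 100 nM and 19 at 300 nM, and below for 1 and 2, where this held for 38.6% and 43.2% of all genes above and 36.2% and 40.6% below. Between doses 16 lay above and 4 below, against 35.3% and 37.8%. Over the tested members the log2 fold changes had a median of 1.55 for 100 nM and 1.73 for 300 nM, beside 0.0252 and 0.0464 over all tested genes. No member was lower at an unadjusted p under 0.05 at either dose, and DESeq2 also gave 0 lower at both. When exon length and GC content were modelled as offsets, 2 members, SERPINF2 and SERPINH1, were lower at 100 nM and 1, SERPINF2, at 300 nM. The same offsets changed the size of other 300 nM values by over 1.5 times: the log2 fold change of SERPINA6 became 1.01, of SERPINE2 1.70 and of SERPINB8 2.02, all still called higher.

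Those counts include 8 members that passed the filter on low counts only through the decitabine libraries, which selects for a rise over DMSO. These were SERPINA5, SERPINA9, SERPINA12, SERPINB2, SERPINB5, SERPINB9, SERPIND1 and SERPING1. The other 13 would have passed on the DMSO libraries alone. Of these 13, 8 were higher at 100 nM and 9 at 300 nM, with 0 lower, where among 19025 genes passing in the same way 18.9% and 29.1% were higher and 22.7% and 37.5% lower. Their log2 fold changes had medians of 0.553 and 0.829, beside -0.0944 and -0.187 over those 19025 genes. From 100 nM to 300 nM 5 of the 13 were higher and 1 lower, against 19.4% and 28.1%. The controls of both dose comparisons are the same 2 libraries. These shares of all genes are also the background for the gene groups that follow.

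**Figure D1:**
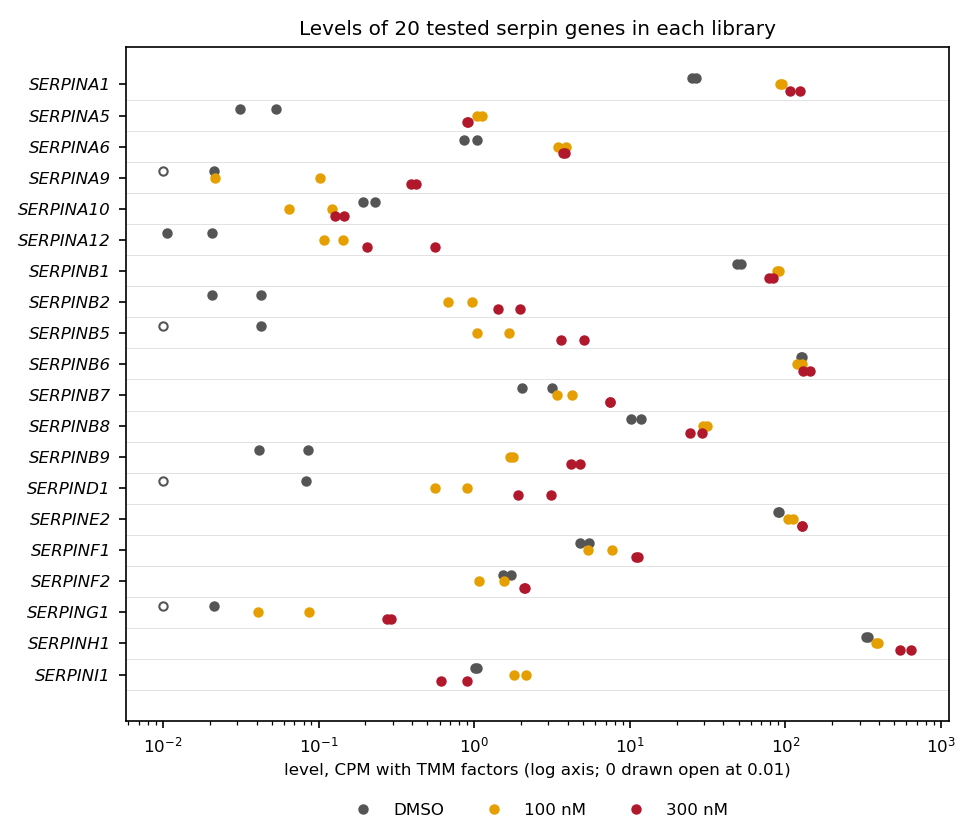
Level of 20 tested serpin genes in every library, in CPM on a log axis, with 2 points per group and a level of 0 drawn as an open point at 0.01. SERPINH1 lies highest of those drawn in all 6 libraries, and SERPINB5, SERPINB9 and SERPIND1 go from under 0.1 CPM with DMSO to more than 1 CPM at 300 nM.

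**Figure D2:**
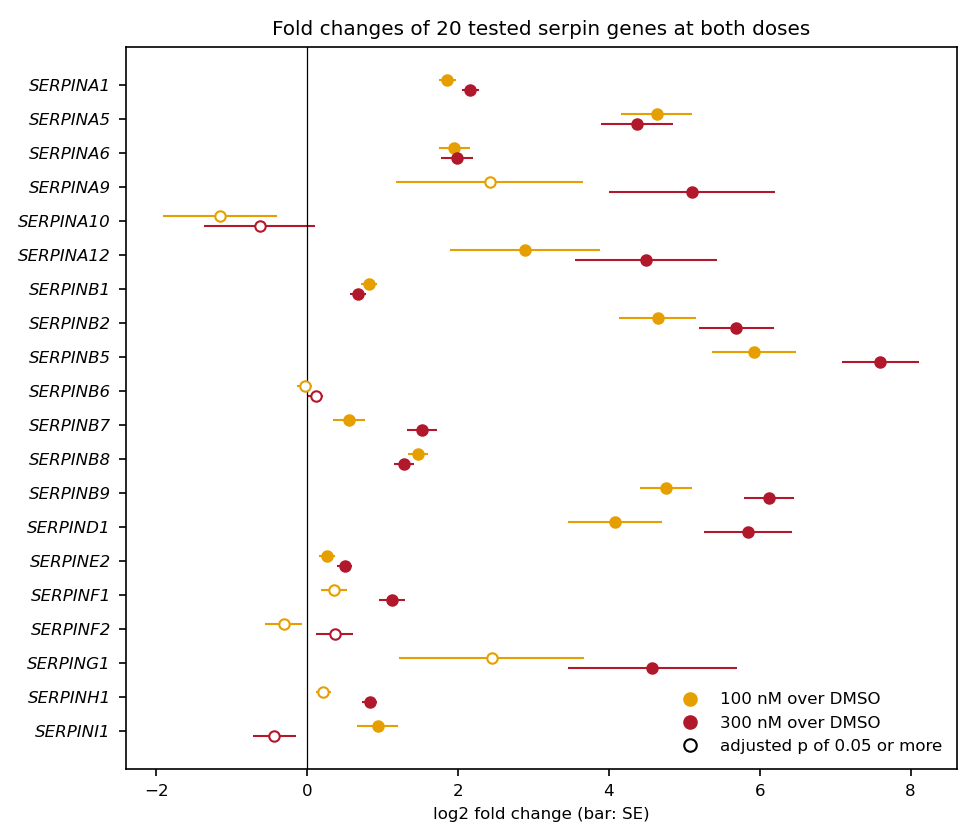
Log2 fold change of 20 tested serpin genes over DMSO at 100 nM and 300 nM, with bars of 1 SE, filled where the adjusted p was under 0.05. Filled points lie to the right of 0 for 13 genes at 100 nM and 16 at 300 nM, and no filled point lies to the left.

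Several serpins control plasminogen activation, the step that dissolves clots and loosens matrix. SERPINE2 (ENSG00000135919.12, chr2:223975112-224039319), protease nexin-1, inhibits thrombin and urokinase at the cell surface. It measured 91.6 and 89.3 CPM in the DMSO libraries, 104.5 and 112.5 CPM under 100 nM and 127.4 and 128.5 CPM under 300 nM. The groups did not overlap, but the differences were small. A log2 rise of 0.50 (SE 0.1, adjusted p = 0.00032) was fitted for 300 nM. At 100 nM it was 0.26 (adjusted p = 0.044), and this call was lost on leaving out any 1 of the 4 libraries compared (adjusted p 0.068 to 0.30), with RLE size factors (0.10), without the filter (0.058), with DESeq2 (0.064) and in the deposited log2 matrix (0.089). With length and GC offsets it was 0.65 (adjusted p = 1.3e-05). The step between doses, 0.24 (adjusted p = 0.065), was not called, but was called with RLE size factors (adjusted p = 0.023), DESeq2 (0.0065), the log2 matrix (0.020) and the offsets, where it was 1.05.

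SERPINB2, the clade B plasminogen activator inhibitor PAI-2, is made by macrophages and stressed epithelium and is named here after its values were seen, since its mean was under 1 CPM. It measured 0.0208 and 0.0425 CPM in the DMSO libraries, 0.683 and 0.963 CPM under 100 nM and 1.98 and 1.42 CPM under 300 nM, from 6, 156 and 298 reads by group. All decitabine libraries lay above the DMSO libraries. Expressed as log2 fold changes, 100 nM gave 4.64 (SE 0.512, adjusted p = 1.2e-06) and 300 nM gave 5.69 (SE 0.494, adjusted p = 2.2e-08). The further rise between doses, 1.04 (adjusted p = 0.016), was lost without replicate 1 of 100 nM (adjusted p = 0.13) or replicate 1 of 300 nM (adjusted p = 0.16). Of its exon bases 19.9% are shared with SERPINB10, and the counting dropped reads falling there.

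The plasminogen activators rose over the same libraries. PLAU, which encodes uPA, measured 25.6 and 22.1 CPM in the DMSO libraries, 88.5 and 91.2 CPM under 100 nM and 100.8 and 92.7 CPM under 300 nM. PLAT, which encodes tPA, measured 0.957 and 0.553 CPM in the DMSO libraries, 23.9 and 25.3 CPM under 100 nM and 71.7 and 62.8 CPM under 300 nM. PLAUR, the uPA receptor, measured 52.1 and 52.8 CPM in the DMSO libraries, 154.4 and 154.3 CPM under 100 nM and 241.9 and 212.9 CPM under 300 nM. None of the 3 had a decitabine library within the DMSO range. Log2 fold changes at 300 nM were 2.02 (adjusted p = 1.2e-10) for PLAU, 6.47 (adjusted p = 7.6e-14) for PLAT and 2.12 (adjusted p = 2.2e-11) for PLAUR. PLG, the plasminogen that they activate, had 2 reads over the DMSO libraries and 0 with decitabine.

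**Figure D3:**
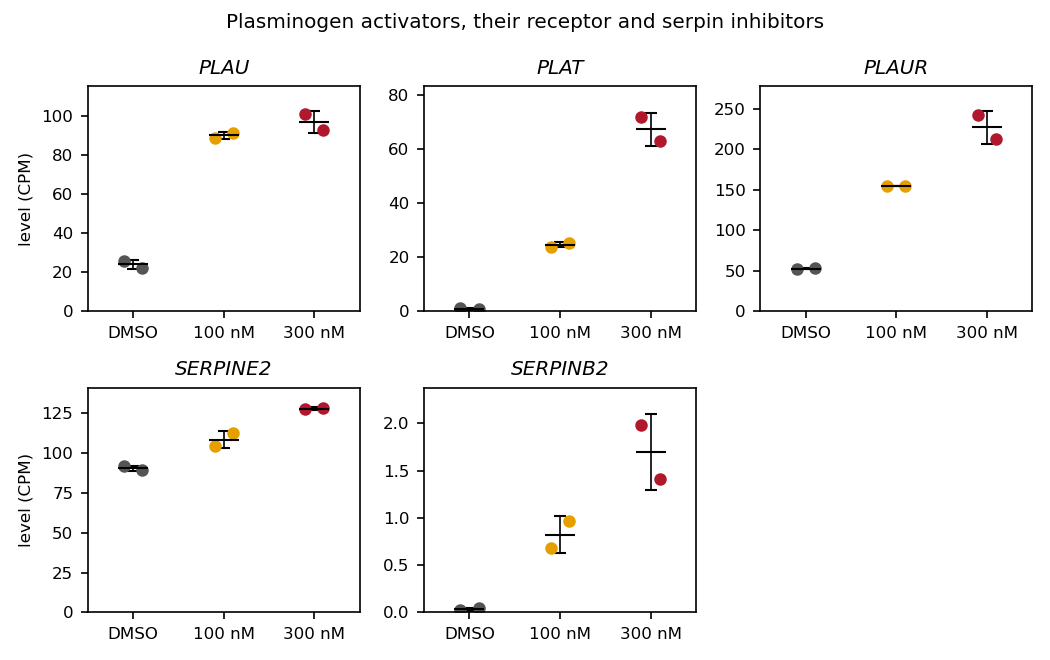
Level in CPM of PLAU, PLAT, PLAUR and of the inhibitors SERPINE2 and SERPINB2 in each library (points), with the group mean and SD (bars, n = 2) and every axis starting at 0. For each of the 5 genes both decitabine groups lie above both DMSO libraries.

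Clade A holds secreted inhibitors and hormone carriers typical of liver. Of its 10 members 6 were tested, 4 were higher at 100 nM and 5 at 300 nM. SERPINA5, SERPINA9 and SERPINA12 passed only through the decitabine libraries, and of the other 3, SERPINA1 and SERPINA6 were higher at both doses. SERPINA1 (ENSG00000197249.13, chr14:94376747-94390693) encodes alpha-1-antitrypsin, the inhibitor of neutrophil elastase. It measured 26.5 and 25.1 CPM in the DMSO libraries, 91.9 and 95 CPM under 100 nM and 124.8 and 106.7 CPM under 300 nM. The groups did not overlap with DMSO, and the means were 25.8 ± 1.01, 93.5 ± 2.25 and 115.7 ± 12.9 CPM by rising dose (SD, n = 2). Fitted log2 fold changes were 1.86 (SE 0.114, adjusted p = 7.6e-10) for the lower dose and 2.16 (SE 0.116, adjusted p = 4.7e-11) for the higher. The step between doses, 0.31 (adjusted p = 0.032), was lost on leaving out any library except replicate 2 of 300 nM (adjusted p 0.075 to 0.19) and in a fit of the 2 groups alone (0.067), and fell to 0.03 (adjusted p = 0.75) with length and GC offsets.

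SERPINA6 (ENSG00000170099.5, chr14:94304248-94323394), the cortisol carrier transcortin, inhibits no protease. It measured 1.04 and 0.862 CPM in the DMSO libraries, 3.46 and 3.92 CPM under 100 nM and 3.72 and 3.81 CPM under 300 nM. Both doses stood at about the same height over DMSO. For 100 nM the log2 rise over DMSO came to 1.95 (SE 0.21, adjusted p = 8.6e-07), for 300 nM to 1.98 (SE 0.21, adjusted p = 2.8e-07). SERPINA5, the protein C inhibitor, had 8, 205 and 160 reads per group and log2 fold changes of 4.63 (adjusted p = 4.5e-07) and 4.38 (adjusted p = 3.9e-07), and is likewise named after its values were seen.

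SERPINA9, known from germinal centre B cells, and SERPINA12, the adipokine vaspin, had few DMSO reads. SERPINA9 (ENSG00000170054.14, chr14:94462717-94479689) measured 0 and 0.0213 CPM in the DMSO libraries, 0.102 and 0.0216 CPM under 100 nM and 0.423 and 0.391 CPM under 300 nM, from 2, 12 and 72 reads. Both 300 nM libraries stood above the rest, and the lower 100 nM library was close to DMSO. By reads its ratio to DMSO was 38.6 at 300 nM (95% counting interval 10.3 to 324.6) and its log2 fold change 5.10 (SE 1.1, adjusted p = 6e-04). At 100 nM the ratio was 5.99 (1.33 to 55.1) and the fitted change was not called (adjusted p = 0.13). These intervals take reads as independent and are too narrow, since mates were counted singly. The rise between doses, 2.68 (adjusted p = 0.019), was lost without replicate 2 of 100 nM (adjusted p = 0.14), replicate 1 of 300 nM (0.10) or replicate 2 of 300 nM (0.068). Without DMSO replicate 2, which held both DMSO reads, the fitted log2 fold change at 300 nM was 8.24, a size that no DMSO read measures.

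SERPINA12 (ENSG00000165953.9, chr14:94487274-94517844) measured 0.0208 and 0.0106 CPM in the DMSO libraries, 0.143 and 0.108 CPM under 100 nM and 0.205 and 0.56 CPM under 300 nM, from 3, 24 and 70 reads. The 300 nM libraries differed more than 2-fold from each other but both lay above 100 nM. By reads its ratio to DMSO was 7.98 (2.42 to 41.4) at 100 nM and 25 (8.21 to 124.2) at 300 nM, and 300 nM gave a fitted log2 rise of 4.50 (SE 0.941, adjusted p = 0.00048). The call at 100 nM, 2.89 (adjusted p = 0.027), was lost without DMSO replicate 1 (adjusted p = 0.057), DMSO replicate 2 (0.12), replicate 1 of 100 nM (0.091) or replicate 2 of 300 nM (0.056), and in the deposited log2 matrix (0.94, adjusted p = 0.051). SERPINA10, the inhibitor of clotting factor X that acts with protein Z, was not called and measured 0.229 and 0.192 CPM in the DMSO libraries, 0.122 and 0.0649 CPM under 100 nM and 0.145 and 0.127 CPM under 300 nM.

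Liver markers went both ways. Of 15 markers chosen, 7 were tested, and 4 were higher and 1 lower at 300 nM, or 1 and 1 of the 4 that passed on the DMSO libraries alone. Their summed level went from 50.9 and 55.4 CPM with DMSO to 18 and 22.1 CPM at 300 nM, most of it CPS1, which measured 49.8 and 54.3 CPM in the DMSO libraries, 28 and 29.2 CPM under 100 nM and 15.4 and 19.2 CPM under 300 nM. ALB had 0 reads in the DMSO and 300 nM libraries and 10 at 100 nM. Clade A summed to 27.9 and 26.2 CPM in controls, to 96.7 and 100.3 CPM under 100 nM and to 130.3 and 112.4 CPM under 300 nM. Most of this sum was SERPINA1 in every library, so it describes that gene more than the clade.

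Clade B genes sit in clusters on chromosomes 6 and 18. On chromosome 6 (chr6:2832332-2972165) lie SERPINB1, SERPINB9 and SERPINB6. SERPINB1 (ENSG00000021355.12, chr6:2832332-2842006) blocks neutrophil elastase and cathepsin G inside myeloid cells. It measured 52.1 and 49.1 CPM in the DMSO libraries, 88.1 and 90.6 CPM under 100 nM and 78 and 83.6 CPM under 300 nM. Over DMSO this was a log2 change of 0.82 (SE 0.106, adjusted p = 7.4e-06) for 100 nM and 0.67 (SE 0.106, adjusted p = 2.8e-05) for 300 nM, with no DMSO library in the range of either dose. SERPINB9 (ENSG00000170542.5, chr6:2887266-2903280) inhibits granzyme B and so shields cells from cytotoxic lymphocytes. It measured 0.0416 and 0.0851 CPM in the DMSO libraries, 1.78 and 1.7 CPM under 100 nM and 4.2 and 4.76 CPM under 300 nM, from 12, 332 and 799 reads. Its groups were ordered by dose with no overlap. Expressed as log2 fold changes, 100 nM gave 4.76 (SE 0.344, adjusted p = 6e-09) and 300 nM gave 6.12 (SE 0.332, adjusted p = 5.5e-11), with 1.36 (SE 0.22, adjusted p = 1e-04) from the lower to the higher dose. GZMB, its target, had 0 reads with DMSO or 300 nM and 2 at 100 nM.

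SERPINB6 (ENSG00000124570.18, chr6:2948159-2972165), a widely expressed inhibitor of cathepsin G, measured 127.4 and 125.5 CPM in the DMSO libraries, 128.0 and 119.0 CPM under 100 nM and 143.5 and 130.3 CPM under 300 nM. The DMSO libraries lay within the range of the 100 nM libraries. Neither dose was called, with log2 values of -0.03 (adjusted p = 0.82) for 100 nM and 0.11 (adjusted p = 0.34) for 300 nM. When exon length and GC content were modelled as offsets these became 0.37 (adjusted p = 0.0093) and 1.20 (adjusted p = 2.7e-07), with a step between doses of 0.83 (adjusted p = 4.5e-05). Of the 2 CpG-rich windows shown above, one thus belongs to a gene nearly silent with DMSO and higher with decitabine, the other to a gene already active.

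The chromosome 18 cluster (chr18:63476761-64019779) holds 10 clade B genes known mainly from squamous epithelium, skin and placenta, and 4 of them were tested. All 4 were higher at both doses, and 3 were higher again at 300 nM, but SERPINB2 and SERPINB5 passed only through the decitabine libraries. SERPINB7 and SERPINB8 did not need them. SERPINB5 (ENSG00000206075.13, chr18:63476761-63505085), maspin, is an epithelial protein named as a tumour suppressor in breast that inhibits no known protease. It measured 0 and 0.0425 CPM in the DMSO libraries, 1.67 and 1.04 CPM under 100 nM and 3.62 and 5.05 CPM under 300 nM, from 4, 260 and 778 reads. The groups were ordered by dose without overlap. Fitted log2 fold changes were 5.92 (SE 0.554, adjusted p = 1.6e-07) for the lower dose and 7.60 (SE 0.514, adjusted p = 9e-10) for the higher, with 1.68 (SE 0.298, adjusted p = 0.00024) from the lower to the higher dose. All 4 of its DMSO reads were in replicate 2, without which the fitted values were 9.98 and 11.65. With 0 DMSO reads left, the size of these values is not measured.

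SERPINB7 (ENSG00000166396.12, chr18:63752935-63805376), megsin, is known from kidney mesangium and skin. It measured 2.04 and 3.17 CPM in the DMSO libraries, 3.42 and 4.22 CPM under 100 nM and 7.48 and 7.48 CPM under 300 nM. The 300 nM libraries stood well apart, while 100 nM began just above DMSO. Fitted over DMSO, 300 nM gave 1.52 (SE 0.205, adjusted p = 5e-06) in log2 units, and for 300 nM over 100 nM 0.97 (SE 0.2, adjusted p = 0.00089). The 100 nM call, 0.55 (adjusted p = 0.039), was lost without DMSO replicate 1 (adjusted p = 0.45) or replicate 2 of 100 nM (0.21) and with DESeq2 (0.066), and without DMSO replicate 2 its value was 0.91. SERPINB8 (ENSG00000166401.14, chr18:63969925-64019779), an inhibitor of furin, measured 10.1 and 11.8 CPM in the DMSO libraries, 29.6 and 31.2 CPM under 100 nM and 24.4 and 29 CPM under 300 nM. Both doses lay far above DMSO, with log2 fold changes of 1.47 (SE 0.138, adjusted p = 1.6e-07) and 1.28 (SE 0.137, adjusted p = 3e-07).

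Squamous markers were read in the same libraries. Of 15 chosen, 9 were tested, 8 were higher at 100 nM and all 9 at 300 nM. All but KRT4 passed only through the decitabine libraries, which selects for a rise over DMSO. KRT4, a keratin of mucosal epithelium, had log2 fold changes of 2.81 (adjusted p = 1.7e-05) and 2.21 (adjusted p = 0.00011). The 15 summed to 0.572 and 0.426 CPM in controls, to 18.6 and 15.3 CPM under 100 nM and to 44.6 and 40.5 CPM under 300 nM. PKP1, a desmosome plaque protein, measured 0.0416 and 0.0213 CPM in the DMSO libraries, 4.18 and 3.77 CPM under 100 nM and 16.5 and 14.7 CPM under 300 nM, and LY6D, a surface protein of stratified epithelium, 0.0936 and 0.0957 CPM in the DMSO libraries, 11.3 and 8.65 CPM under 100 nM and 19.1 and 17 CPM under 300 nM. KRT14 and KRT6A, keratins of that epithelium, had means of 0.0418, 0.949 and 4.27 CPM and 0.026, 0.215 and 1.83 CPM in the same order of dose. The defining markers KRT5 and TP63 had 0 and 2 DMSO reads and 44 and 48 at 300 nM. The part of these markers in the chromosome 18 result was not tested.

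SERPIND1 of the clotting system and SERPING1 of complement both stood under 0.1 CPM with DMSO. SERPIND1 (ENSG00000099937.10, chr22:20773879-20787720), heparin cofactor II, inhibits thrombin. It measured 0.0832 and 0 CPM in the DMSO libraries, 0.897 and 0.563 CPM under 100 nM and 3.09 and 1.91 CPM under 300 nM, from 8, 140 and 437 reads. All 8 DMSO reads lay in replicate 1, and the 3 groups were ordered by dose. For 100 nM the log2 rise over DMSO came to 4.08 (SE 0.62, adjusted p = 4.3e-05), for 300 nM to 5.85 (SE 0.583, adjusted p = 1.3e-07), with 1.77 (SE 0.403, adjusted p = 0.0019) from the lower to the higher dose. Without DMSO replicate 1 the fitted values over DMSO were 9.08 and 10.85, but with 0 DMSO reads left their size is not measured. DESeq2 did not call the step between doses (adjusted p = 0.20).

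SERPING1 (ENSG00000149131.15, chr11:57597387-57614853), C1 inhibitor, restrains the first complement proteases. It measured 0 and 0.0213 CPM in the DMSO libraries, 0.0408 and 0.0866 CPM under 100 nM and 0.29 and 0.275 CPM under 300 nM, from 2, 12 and 50 reads. By reads its ratio to DMSO was 26.8 at 300 nM (7.04 to 227.3), with a fitted log2 rise of 4.58 (SE 1.12, adjusted p = 0.0017), and at 100 nM the change was not called (adjusted p = 0.12). Without DMSO replicate 2, which held both DMSO reads, the fitted value at 300 nM was 7.71, a size that no DMSO read measures. The step between doses, 2.13 (adjusted p = 0.06), was called with RLE size factors (adjusted p = 0.049), in a fit of the 2 groups alone (0.028) and in the log2 matrix (0.022). Its target C1S measured 1.96 and 2.08 CPM in the DMSO libraries, 36.4 and 36.8 CPM under 100 nM and 25.6 and 24 CPM under 300 nM, with log2 fold changes of 4.18 (adjusted p = 4.8e-13) and 3.62 (adjusted p = 1.3e-12).

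A neighbouring pair, SERPINF1 and SERPINF2, lies on chromosome 17. SERPINF1 (ENSG00000132386.10, chr17:1761959-1777574), the antiangiogenic factor PEDF, inhibits no protease. It measured 4.76 and 5.46 CPM in the DMSO libraries, 7.68 and 5.4 CPM under 100 nM and 11.3 and 11 CPM under 300 nM. The 300 nM libraries were above all others, while 100 nM overlapped DMSO. For 300 nM the log2 change over DMSO came to 1.12 (SE 0.175, adjusted p = 2.5e-05), which fell to 0.31 (adjusted p = 0.071) with length and GC offsets. At 100 nM it was 0.36 (adjusted p = 0.11), called without replicate 2 of 100 nM (adjusted p = 0.017). SERPINF2 (ENSG00000167711.13, chr17:1742836-1755268), alpha-2-antiplasmin, the main inhibitor of plasmin, measured 1.72 and 1.54 CPM in the DMSO libraries, 1.55 and 1.07 CPM under 100 nM and 2.11 and 2.08 CPM under 300 nM. Neither dose was called over DMSO, at -0.31 (adjusted p = 0.33) and 0.36 (adjusted p = 0.2). With the offsets it was lower, at -0.83 (adjusted p = 0.0079) and -0.64 (adjusted p = 0.023). The rise between doses, 0.68 (adjusted p = 0.035), was lost without replicate 2 of 100 nM (adjusted p = 0.31), replicate 1 of 300 nM (0.095) or replicate 2 of 300 nM (0.068), and with the offsets (0.19, adjusted p = 0.55).

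SERPINH1 (ENSG00000149257.13, chr11:75562056-75572783), HSP47, is the collagen chaperone of the endoplasmic reticulum and inhibits no protease. It measured 330.8 and 337.7 CPM in the DMSO libraries, 394.8 and 380.5 CPM under 100 nM and 643.1 and 544.6 CPM under 300 nM. Every 300 nM library was above every 100 nM library, and those above DMSO. A log2 rise of 0.83 (SE 0.101, adjusted p = 1.6e-06) was fitted for 300 nM, and for 300 nM over 100 nM 0.62 (SE 0.101, adjusted p = 0.00012). At 100 nM it was 0.21 (adjusted p = 0.099), which was called without replicate 1 of 300 nM (adjusted p = 0.011) or replicate 2 of 300 nM (0.010) and in a fit of the 2 groups alone (0.0076). With length and GC offsets the values were -0.14 (adjusted p = 0.049) at 100 nM and 0.16 (adjusted p = 0.022) at 300 nM. PLOD2, a collagen lysyl hydroxylase of the same compartment, fell, and measured 358.7 and 384.6 CPM in the DMSO libraries, 248.9 and 295.8 CPM under 100 nM and 117.3 and 142.8 CPM under 300 nM. PLOD1, another lysyl hydroxylase, was higher at both doses, with means of 578.3, 747.4 and 877.0 CPM.

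SERPINI1 (ENSG00000163536.12, chr3:167735243-167825568), neuroserpin, inhibits tPA in brain and was the only member called lower at 300 nM than at 100 nM. It measured 1.02 and 1.04 CPM in the DMSO libraries, 1.8 and 2.14 CPM under 100 nM and 0.616 and 0.898 CPM under 300 nM. The 100 nM libraries stood above both other groups. Over DMSO 100 nM gave a log2 rise of 0.94 (SE 0.271, adjusted p = 0.0099), lost without replicate 2 of 100 nM (adjusted p = 0.072). From 100 nM to 300 nM the log2 value was -1.37 (SE 0.279, adjusted p = 0.00075). At 300 nM the value over DMSO was -0.44 (adjusted p = 0.19), not called.

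By order of calls, 7 members were higher at both doses with no called step between them, among them SERPINA5, SERPINA6, SERPINA12, SERPINB1, SERPINB8 and SERPINE2. A further 6 were higher at both and higher again at 300 nM: SERPINA1, SERPINB2, SERPINB5, SERPINB7, SERPINB9 and SERPIND1. The 300 nM dose alone was called over DMSO for 4, SERPINA9, SERPINF1, SERPING1 and SERPINH1. SERPINI1 was higher at 100 nM only, SERPINF2 was called only between doses, and SERPINA10 and SERPINB6 were called in no comparison. The share of all tested genes with each pattern was not counted. Several of these calls did not hold in every setting, such as that of SERPINE2 at 100 nM and the step of SERPINA1 between doses. The 8 members under 0.1 CPM with DMSO are those that passed only through the decitabine libraries, a choice that selects for rises. Their log2 fold changes at 300 nM were 4.38 to 7.60. The 7 at 10 CPM or more had 0.114 to 2.16. Over the 13 that passed on the DMSO libraries alone, DMSO level and log2 fold change at 300 nM had a Spearman correlation of 0.21, a description in which both share the DMSO libraries.

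The other 13 members were silent or close to it, with at most 14 reads in any library. SERPINA7, SERPINA11, SERPINB12, SERPINB13 and SERPINI2 had 0 reads in all 6. SERPINA3 had 6 reads over the 6 libraries, SERPINA4 5, SERPINB3 6, SERPINB4 4, SERPINB10 2, SERPINB11 1, SERPINC1 27 and SERPINE3 37. SERPINC1, antithrombin, is the main inhibitor of thrombin in plasma, and SERPINA3 inhibits cathepsin G. Shared exons limit some of these values, since reads on bases of more than 1 gene were dropped and strand was not used. Of the exon bases of SERPINA3 31.8% are shared with AL049839.2, of SERPINB3 34.9% with SERPINB11 on the opposite strand, and of SERPINE3 30.3% with INTS6 on the opposite strand. SERPINB3 and SERPINB4 are near-identical copies, so their reads are uncertain.

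Genes next to the chromosome 14 and 18 clusters moved in both directions, and those called near the chromosome 6 cluster were higher. Of all tested genes 34.8% were higher and 31.1% lower at 300 nM. All 23 tested neighbours passed on the DMSO libraries alone, as did 19025 genes, of which 29.1% were higher and 37.5% lower. In the chromosome 14 cluster (chr14:94280455-94624055) all 9 members belong to clade A, and 5 of 6 tested were higher at 300 nM, 3 of them members that passed only through the decitabine libraries. Of 13 other protein-coding genes in or within 500 kb of it 9 were tested, with 6 higher and 2 lower. IFI27, an interferon-induced gene on its near side, had means of 13.6, 698.1 and 988.7 CPM across rising dose, and ASB2, a ubiquitin ligase subunit, 0.262, 2.91 and 4.12 CPM. DICER1, the microRNA-processing enzyme on the far side, was lower at 38.9, 15.8 and 6.05 CPM. Beside the chromosome 18 cluster, 5 other genes were tested, and 1 was higher and 2 lower at 300 nM. KDSR, a sphingolipid enzyme, was higher, and BCL2, an inhibitor of apoptosis, was lower with means of 6.24, 2.28 and 1.55 CPM. Around the chromosome 6 cluster 5 of 9 genes were higher and 0 lower at 300 nM, TUBB2A, a beta-tubulin, the most at 42.8, 71.2 and 170.0 CPM. These neighbours are named after their values were seen.

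**Figure D4:**
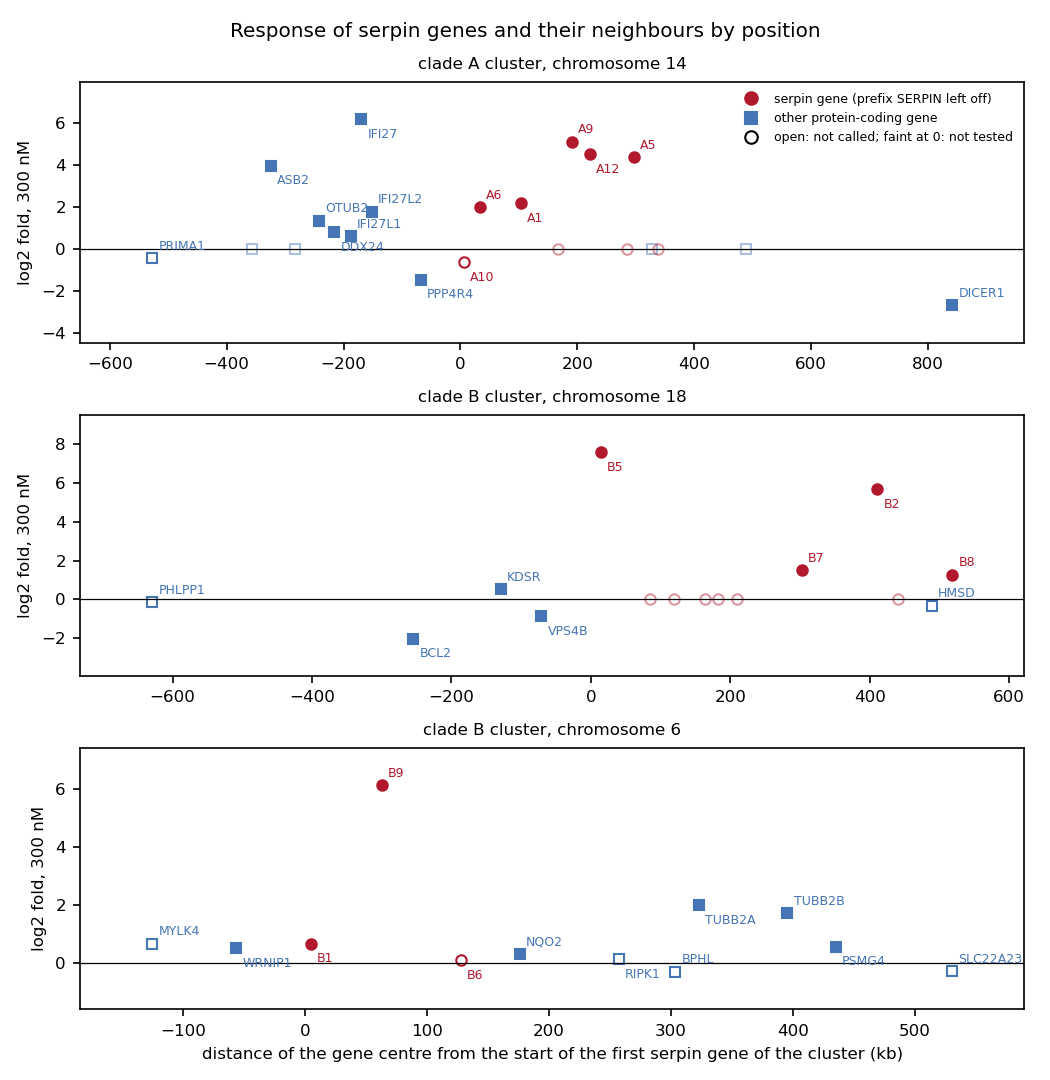
Log2 fold change at 300 nM over DMSO of serpin genes (circles) and other protein-coding genes (squares) against distance in kb from the start of the first serpin gene of each of 3 clusters, open where not called and faint at 0 where not tested. Called serpin genes lie above 0 in all 3 panels. Of the called neighbours 12 lie above 0, IFI27 among them, and 4 below, such as DICER1 and BCL2.

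Promoter windows were found in RefSeq for 27 of the 34 members. The median member held 4 CpG in its richest window, against 16 over 27305 genes. Among 17 tested members with a window, CpG count and DMSO level had a Spearman correlation of 0.62, a description across genes. The lowest DMSO levels among the 17 belong to members that passed only through the decitabine libraries. The filter on response thus shaped this set, and the correlation is no result about CpG. For members that passed only through the decitabine libraries, the rise is therefore no result about CpG. Those with a window had 35 for SERPINB9, 16 for SERPINB5, 9 for SERPINA5, 5 for SERPINA12, 2 for SERPIND1 and 1 each for SERPINA9 and SERPINB2. SERPINB1, SERPINH1, SERPINE2 and SERPINB6, with 27, 28, 31 and 45, had log2 fold changes at 300 nM of 0.67, 0.83, 0.50 and 0.11.

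Windows were searched on both strands for short motifs. The letters TGANTCA, a loose form of the site read by AP-1 factors, were in 8 of 27 members (29.6%) against 9.37% of all genes with a window, and 6 of the 8 lie in the chromosome 18 cluster. The stricter TGACTCA, which was searched after those counts were seen, was in 3 members (11.1%) against 6.05%: SERPINB7, SERPINB8 and SERPINB13. SERPINB2 and SERPINB5 thus hold the loose form only. TATAAA, the letters of the TATA box, was in 10 members (37%) against 14%. A motif was counted at any position in any window of a gene, so a match to TATAAA need not be a TATA box. The 27 members had 41 windows and the 27305 genes had 35116, and more windows give more places for a match. The core of interferon response elements (GAAA, any 2 bases, then GAAA) was in 1 (3.7%) against 4.38%. SERPINB13 and SERPINB12, silent in all libraries, hold the loose form too.

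**Figure D5:**
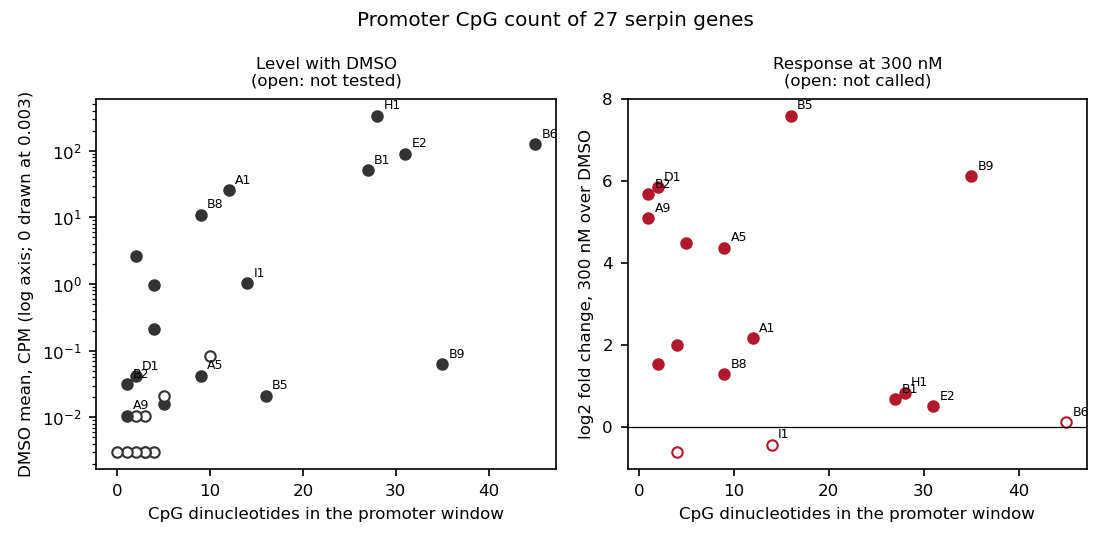
CpG count in the richest promoter window of 27 serpin genes against DMSO level in CPM on a log axis (left, open where not tested, 0 drawn at 0.003) and against log2 fold change at 300 nM (right, open where not called). SERPINB9 with 35 CpG and SERPINB6 with 45 had log2 values of 6.12 and 0.11. SERPINB9 passed only through the decitabine libraries, and SERPINB6 had 1.2 with length and GC offsets.

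Target proteases and other inhibitors of the same systems were higher more often than lower. Of 57 listed proteases 38 were tested, with 26 higher and 4 lower at 100 nM and 26 higher and 5 lower at 300 nM. Among them 15, such as KLK2 and HPN with no DMSO reads, passed only through the decitabine libraries. Of the other 23, 15 were higher and 4 lower at 100 nM and 15 and 5 at 300 nM, where 18.9% and 22.7%, then 29.1% and 37.5%, of all genes passing in this way were. Their median log2 fold change was 0.791 and 0.972. Besides PLAT, C1S and PLAU the smallest adjusted p at 300 nM belonged to ST14, matriptase, at 0.374 and 0.33 CPM in the DMSO libraries, 2.42 and 1.5 CPM under 100 nM and 6.63 and 5 CPM under 300 nM. Of 34 inhibitors that are not serpins 24 were tested, with 15 higher and 4 lower at 100 nM and 18 higher and 3 lower at 300 nM. Of the 15 that passed on the DMSO libraries alone, 8 were higher and 4 lower at 100 nM and 9 and 3 at 300 nM. SPINT1, an inhibitor of matriptase, measured 0.53 and 0.585 CPM in the DMSO libraries, 10 and 9.86 CPM under 100 nM and 30.2 and 26.1 CPM under 300 nM. SPINT2, its relative, had means of 40.5, 124.3 and 209.8 CPM, and CST6, a cystatin, 0.158, 2.01 and 15.2 CPM. TFPI, the inhibitor of tissue factor, fell and measured 68.7 and 75.4 CPM in the DMSO libraries, 30.5 and 36.3 CPM under 100 nM and 14.7 and 13.6 CPM under 300 nM, a log2 fold change of -2.35 (adjusted p = 7.1e-11) at 300 nM.

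Of 26 receptors, cofactors and chaperone partners 25 were tested, with 13 higher and 4 lower at 100 nM and 16 higher and 5 lower at 300 nM. All but VTN, vitronectin, passed on the DMSO libraries alone. SDC4, a heparan sulfate proteoglycan, had means of 146.8, 518.8 and 733.7 CPM across rising dose, and PROCR, the protein C receptor, 40.1, 76.3 and 123.6 CPM. Markers of blood cells, which make SERPINB1, SERPINB9 and SERPING1, were checked in the same libraries. Of 11 chosen 7 were tested and 6 were higher at 300 nM, or 3 of the 4 that passed on the DMSO libraries alone, with sums of 1.18 and 1.36 CPM with DMSO and 7.58 and 5.34 CPM at 300 nM. PTPRC, which marks all white blood cells, had 12, 11 and 4 reads per group. The part of these genes in the serpin results was not tested.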

How the data were processed

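Polyadenylated RNA was measured in 6 libraries. The deposited counts are whole reads per gene, made by the authors with featureCounts 1.5.0-p3 on GENCODE 28 models without a paired-end or strand option, per the file headers. Mates were therefore counted singly. STAR, SAMtools and DESeq2 are named in the submitters' processing notes. Those notes name hg19, but all 56933 identifiers shared with GENCODE 29 had the same GRCh38 coordinates, which are used here. The deposited matrix of log2 values, variance-stabilised by the authors, served as an alternative only.

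Counts were filtered with filterByExpr, scaled by TMM and fitted in edgeR 4.0.16 (R 4.3.3, limma 3.58.1) over 6 libraries with 3 residual degrees of freedom, two-sided, with Benjamini-Hochberg adjustment. The fit was also run on simulated data, with changes set in a small part of the genes, all well counted. That run does not cover members with few DMSO reads, nor a shift of many genes at once. Members averaging 1 CPM or more, and called members with 3 DMSO reads or fewer, are given in full. Up to 4 called genes of smallest adjusted p represent each list. Further list genes, such as the untested PLG and GZMB, are named outside this rule. Clusters join members at most 500 kb apart. Members and lists were chosen with earlier results of these data known, and the motif TGACTCA was added after counts for TGANTCA were seen, as were the counts over genes passing on the DMSO libraries alone after the first calls. Alternatives were RLE size factors, no filter, DESeq2 1.42.0, a replicate block, 2 groups only, length and GC offsets, the log2 matrix and each library left out. No samples were excluded. The values of 1 member, which is counted in all totals, are not reported here.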

Additional observations from a re-analysis of the deposited data

How the results depend on the processing

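The number of members higher at 300 nM was 17 under every alternative run, and the number higher at 100 nM ranged from 11 to 16 against 14. Leaving out 1 library gave 11 to 15 higher at 100 nM, 17 at 300 nM and 7 to 9 between doses against 10, with 0, 0 and 1 lower. A group left with 1 library was assumed to vary like the others. Members lower than DMSO were 0 in all settings except length and GC offsets, with 2 at 100 nM and 1 at 300 nM. Those offsets also shifted all genes, with 5443 higher and 7251 lower at 100 nM (5564 and 4331 without them) and 6999 and 8779 at 300 nM (8060 and 7203), and moved the median from 0.03 to -0.15 and from 0.05 to -0.17. The 17 members higher at 300 nM under the offsets were not the same 17. SERPINF1 lost its call (0.31, adjusted p = 0.071) and SERPINB6 gained one (1.20, adjusted p = 2.7e-07). Under the offsets the log2 fold change turned sign for SERPINB6 (0.37), SERPINH1 (-0.14) and SERPINF1 (-0.08) at 100 nM, for SERPINI1 (0.22), SERPINA10 (0.20) and SERPINF2 (-0.64) at 300 nM, and between doses for SERPINB1 (0.04), SERPINA6 (-0.37) and SERPINB8 (0.37). The cause was not tested. It also turned for SERPINB6 at 100 nM without replicate 2 of 100 nM (0.02, against -0.06 without replicate 1) and for SERPINA6 between doses without replicate 1 of 100 nM (-0.08, against 0.12 without replicate 2). In the deposited log2 matrix, whose scaling compresses low values, members under 0.1 CPM with DMSO had smaller changes, such as 5.01 for SERPINB5 at 300 nM, and the 100 nM call of SERPINA12 was lost there (0.94, adjusted p = 0.051). The promoter count for TGANTCA of 8 members became 3 with TGACTCA, added after the first count was seen.

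Same-numbered libraries deviated together with correlations of 0.17, 0.19 and 0.35, but the labels give no shared origin and there are 2 numbers only, so the numbers name samples. With a replicate block 16 members were higher at 100 nM, 17 at 300 nM and 11 between doses, with 0, 0 and 1 lower. The block added calls for SERPINH1 (adjusted p = 0.041) and SERPINF1 (0.040) at 100 nM and for SERPINE2 (0.021) between doses. For the 13 untested members, with at most 14 reads in any library, changes were not detectable at this depth.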

Other observations

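Of 8 SERPIN-named entries that are not protein-coding or fall outside the naming rule, only SERPINA2, SERPINB9P1 and SERPINH1P1 were tested. The first 2 were higher at both doses, where 24% and 34.8% of all tested genes were higher at 100 nM and 300 nM. SERPINA2 passed the filter only through the decitabine libraries, which selects for a rise over DMSO. SERPINA2, a polymorphic pseudogene in the chromosome 14 cluster, had 0 reads over the DMSO libraries, 26 at 100 nM and 60 at 300 nM. This was at least 8.65-fold and 21.4-fold higher against 3 reads over both controls, with mates taken as independent. SERPINB9P1, a noncoding gene beside SERPINB9, had 45, 139 and 123 reads and log2 fold changes of 1.62 (adjusted p = 0.0044, edgeR quasi-likelihood test) and 1.55 (adjusted p = 0.0036). SERPINH1P1 had 58, 50 and 56 reads and was not called.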
